A study of Mus musculus with 9 samples.

Results

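The genes described here encode secreted proteins of the fibroblast extracellular matrix and the enzyme that cross-links it: Thbs1, Thbs2, Fn1, Tnc, Postn, Sparc, Dcn, Bgn, Lox and Fbn1. They were chosen by name as a family of matrix glycoproteins, proteoglycans and lysyl oxidase, and each gene was represented by its probe set with 1 gene symbol that had the highest mean over all arrays. Of the 10 genes, 9 were measured this way, among 22180 genes in all, and Fbn1 was not analysed here. Total RNA of the mouse fibroblast line hMLKL1-181-2Fv-NIH3T3 was measured on 9 one-colour Affymetrix arrays, 3 in each of 3 groups. Washout cells received 50 nM B/B for 1 h, were sorted as positive for annexin V, which binds phosphatidylserine on the cell surface, and were then kept through a washout of 6 h. The series design gives this step as 3000 nM and names no compound for it. B/B 1 h cells had the same dose of B/B for 1 h and the same sort, with no washout. Between these 2 groups, the washout, its 3000 nM step and the 6 h of added time cannot be told apart. Control cells had the control treatment, and their labels give neither a sort nor a harvest time, so B/B, sorting and time in culture cannot be told apart in a comparison with control. All 3 groups carried the same construct, part of human MLKL, which makes the plasma membrane leak during necroptosis, joined to Fv domains that B/B brings together. Cells without the construct are not among these arrays, and no label tells if samples within a group were grown as separate cultures, so the spread that p-values rest on may be technical.

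Fibroblasts build their surroundings from collagen fibrils, a fibronectin network and elastic microfibrils, and they decorate these with glycoproteins and proteoglycans. Matricellular proteins, such as thrombospondins, tenascin C, periostin and SPARC, do little to hold the matrix up and instead tune how cells attach to it and how growth factors are stored or released. Small leucine-rich proteoglycans, such as decorin and biglycan, carry chondroitin or dermatan sulfate chains and coat collagen fibrils, and lysyl oxidases then oxidize lysines of collagen and elastin so that the chains become covalently linked.

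Promoter windows from the RefSeq table of build GRCm38.p6 ran from 250 bases before to 50 bases after an annotated start. Among the genes with a window examined, those whose levels bear most on the results are shown here. Windows were examined for 6 of the 10 genes and not for Thbs1, Fn1, Dcn and Lox, which does not show that the reference lacks their promoters. Capitals mark matches, on either strand, to the motifs searched: TGACTCA of AP-1, GGAATG of TEAD, CAGAC of SMAD, the GC box GGGCGG, the TATA box TATAAA, GCGGGGGCG of EGR and the CArG box of SRF. Tnc, which rose, is on the minus strand at chr4:64046887-64047186; Sparc, which fell, is on the minus strand at chr11:55420031-55420330; Bgn, whose probe sets disagreed, is on the plus strand at chrX:73483351-73483650.
Tnc: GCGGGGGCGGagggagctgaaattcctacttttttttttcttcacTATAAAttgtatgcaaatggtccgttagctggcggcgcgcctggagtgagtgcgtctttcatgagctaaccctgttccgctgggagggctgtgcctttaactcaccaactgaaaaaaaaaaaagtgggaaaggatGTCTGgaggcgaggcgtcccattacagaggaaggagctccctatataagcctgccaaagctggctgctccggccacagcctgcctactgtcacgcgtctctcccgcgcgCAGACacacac
Sparc: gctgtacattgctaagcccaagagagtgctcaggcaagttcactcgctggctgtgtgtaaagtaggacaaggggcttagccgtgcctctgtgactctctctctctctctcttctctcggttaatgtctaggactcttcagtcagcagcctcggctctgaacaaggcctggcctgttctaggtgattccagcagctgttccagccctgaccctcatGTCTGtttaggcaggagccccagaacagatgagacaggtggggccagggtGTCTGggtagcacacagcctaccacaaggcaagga
Bgn: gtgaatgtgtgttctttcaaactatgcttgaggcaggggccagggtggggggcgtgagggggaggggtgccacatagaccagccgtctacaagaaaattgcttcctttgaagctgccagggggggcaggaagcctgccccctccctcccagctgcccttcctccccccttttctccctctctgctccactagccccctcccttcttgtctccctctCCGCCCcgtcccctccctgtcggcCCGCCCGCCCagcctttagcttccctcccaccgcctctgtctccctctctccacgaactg
The Tnc window begins with an EGR match that overlaps a GC box, and it holds 2 SMAD matches, 1 on each strand. It also holds 1 match to the letters TATAAA, from base -205 to base -200, and variants of these letters were not searched. In the other annotated Tnc window, whose start lies upstream, the EGR match runs from base -171 to base -163. The Sparc window holds 2 SMAD matches and none of the other motifs, and the Bgn window holds 3 GC boxes, of which a pair overlap. Among 32851 promoter windows of the same length, 2.91% held the EGR motif, 35.7% the GC box, 13.6% the TATA box, 49.6% the SMAD motif, 14.7% the TEAD motif, 5.2% the AP-1 motif and 1.63% the CArG box. A match describes these letters alone, and binding was not measured.

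After washout, Thbs1, Sparc and Lox fell and Tnc and Dcn rose against control, while Fn1, Thbs2, Bgn and Postn did not pass the test. Thbs1 fell the most among the 9 genes, by 1.01 ± 0.044 on the log2 scale (SE), to a level 0.498 times that of control. Levels are the deposited log2 probe set values, whose base of 2 was inferred from their range, and a gene passed where its Benjamini-Hochberg adjusted p over all genes was under 0.05 in limma. With 3 lower and 2 higher, 5 of 9 genes passed against control, where 26.2% of all genes did. Of the 9 genes, 8 lay in the top 10% of genes by mean level, and in that top 10% the share past the test was 52.4%, so the count of 5 is near the share seen for genes of such levels. The median log2 difference of the 9 genes was -0.04, beside 0 for all genes. Every washout array lay above every control array for 3 of 9 genes and below for 3, where 20.2% and 17.8% of all genes did so, or 38.0% together.

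**Figure D1:**
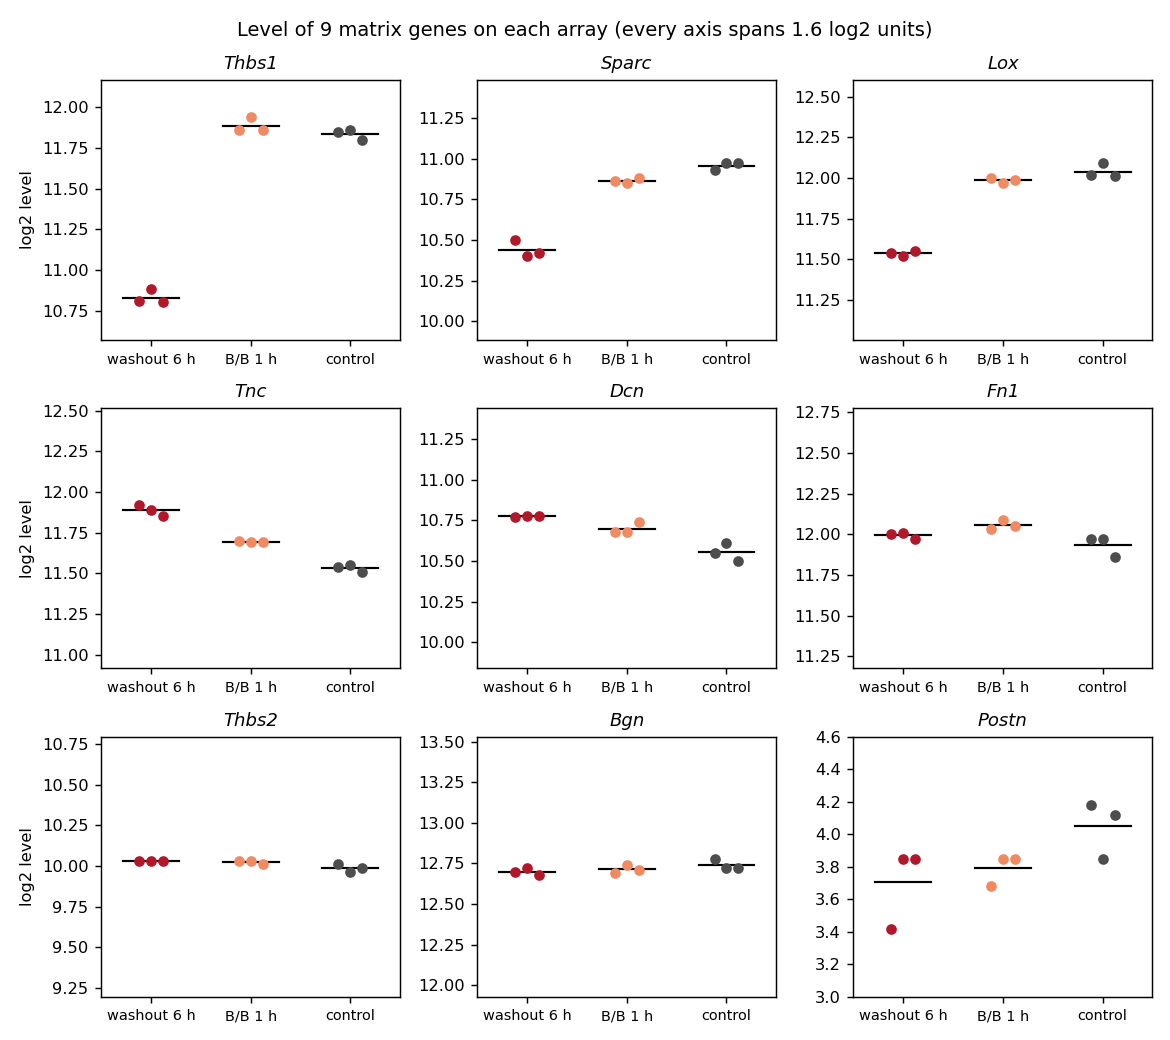
Log2 level (vertical axis) of 9 matrix genes on each array, with 3 washout, 3 B/B 1 h and 3 control arrays from left to right; points are arrays and lines are group means. Thbs1, Sparc and Lox lie lower on every washout array than on any other array, and Tnc lies higher on every washout array than on any other. Thbs2 stays level, as does Bgn, for which only the brighter of its 2 probe sets is drawn.

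Between washout and B/B 1 h, the 2 sorted groups, Thbs1, Sparc and Lox were again lower and Tnc higher, so that 4 of 9 genes passed, against 28.6% of all genes and 53.5% of the top 10% by mean. Both comparisons share the washout arrays, and comparisons with control share the control arrays, so they are not independent of each other. All washout arrays lay above all B/B 1 h arrays for Tnc and Dcn and below for Thbs1, Fn1, Sparc and Lox, where 21.1% and 18.4% of all genes did so, or 39.6% together. At B/B 1 h none of the 9 genes passed against control in limma, where 2.89% of all genes and 5.23% of the top 10% did, 1.01% higher and 1.88% lower of all genes. At an unadjusted p under 0.05 the count at 1 h was 3, namely Tnc, Dcn and Fn1, each higher, where 18.5% of all genes and 21.6% of the top 10% by mean passed in either direction and 8.16% of all genes were higher. All B/B 1 h arrays lay above all control arrays for Thbs2, Fn1, Tnc and Dcn and below for Sparc and Lox, 6 of 9 genes where 21.3% of all genes stood apart, 9.0% above and 12.3% below.

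**Figure D2:**
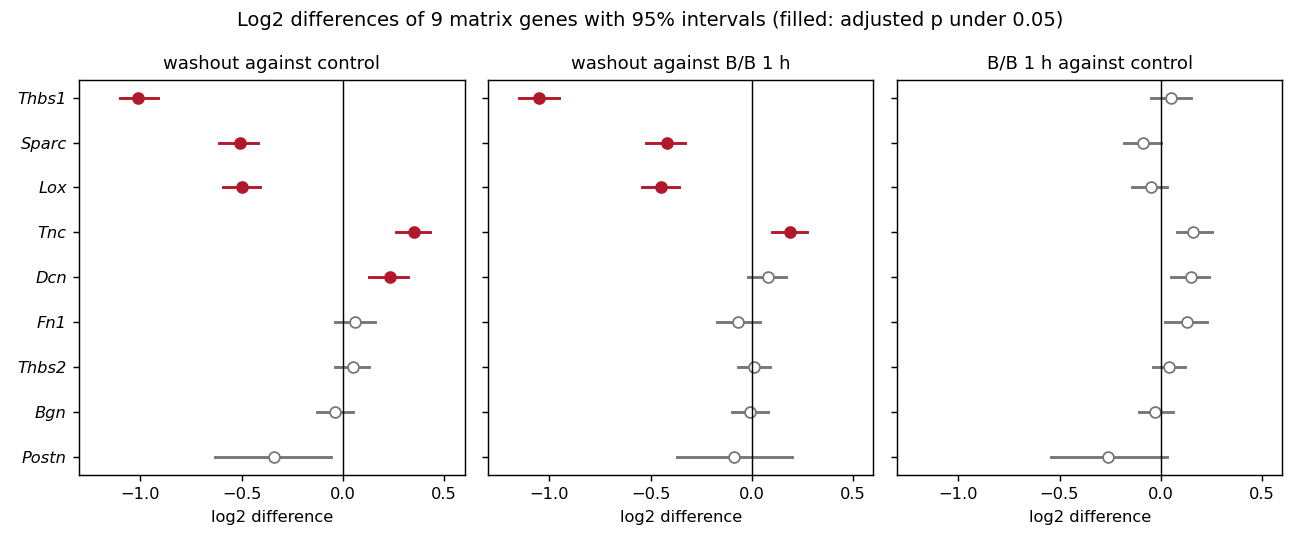
Log2 differences (horizontal axis) of 9 matrix genes in 3 comparisons, with 95% intervals from limma; filled points passed an adjusted p under 0.05. The interval of Thbs1 runs from -1.10 to -0.91 for washout against control and from -0.05 to 0.15 for B/B 1 h against control.

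Thbs1 encodes thrombospondin 1, a matricellular protein that binds CD47 and CD36 and can release TGF-beta from its latent form. Its log2 level was 10.81, 10.88 and 10.80 on the washout arrays, 11.86, 11.94 and 11.86 on the B/B 1 h arrays and 11.85, 11.86 and 11.80 on the control arrays. The washout arrays lay about 1 log2 unit below all others, and B/B 1 h and control arrays overlapped. The adjusted p in limma was 4.41e-07 for washout against control and 2.5e-07 for washout against B/B 1 h, where Thbs1 fell by 1.05 ± 0.044 (log2, SE). It was the 91st lowest of 22180 differences from control and the 85th lowest from B/B 1 h. At 1 h its difference from control was 0.05, with an adjusted p of 0.608 in limma.

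Thbs2 encodes thrombospondin 2, a close relative of thrombospondin 1 which also limits vessel growth. Its log2 level read 10.03 on each of the 3 washout arrays, 10.03, 10.03 and 10.01 on the B/B 1 h arrays, and 10.01, 9.96 and 9.99 on the control arrays. Control arrays were slightly below the others except for 1 tie at this rounding, and washout and B/B 1 h arrays overlapped. The difference of washout from control was 0.05, with a 95% interval from -0.04 to 0.13 and an adjusted p of 0.457 in limma. The change of Thbs1 minus Thbs2 within arrays was -1.05 for washout against control. Its exact two-sided permutation p was 0.1, the smallest that 3 arrays against 3 can give. With the levels listed for both genes this p could take no other value, so it adds nothing to them.

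Sparc encodes a calcium-binding glycoprotein, also called osteonectin, that binds collagen and loosens cell contacts with the matrix. It read 10.50, 10.40 and 10.42 on the washout arrays, 10.86, 10.85 and 10.88 on the B/B 1 h arrays and 10.93, 10.97 and 10.97 on the control arrays (log2 level). All 3 groups stood apart from each other, with washout lowest. Sparc fell by 0.51 ± 0.042 (log2, SE) after washout against control, to 0.7 times the control level (limma adjusted p 1.73e-05), and by 0.42 against B/B 1 h (limma adjusted p 4.88e-05). Its difference at 1 h, -0.09, did not pass (limma adjusted p 0.288).

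Tnc encodes tenascin C, a multi-armed glycoprotein that weakens adhesion to fibronectin and is made in wounds. Its log2 level was 11.92, 11.89 and 11.85 on the washout arrays, 11.70, 11.69 and 11.69 on the B/B 1 h arrays and 11.54, 11.55 and 11.51 on the control arrays. The 3 groups did not overlap, and B/B 1 h lay between washout and control. Tnc rose by 0.35 ± 0.039 (log2, SE), or 1.27-fold, in washout against control (limma adjusted p 0.000115) and by 0.19 ± 0.039 against B/B 1 h (limma adjusted p 0.00488). At 1 h the difference from control was 0.16 ± 0.039 (log2, SE), with an adjusted p of 0.0596 in limma. That value passed when the lowest 30% of genes by mean were left out (0.0337) or a mean-variance trend was fitted (0.000834). A long noncoding RNA gene spans part of Tnc in the annotation, and one spans part of Postn; strand use of these probe sets was not examined.

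Postn encodes periostin, a matricellular protein of collagen-rich tissue that binds integrins. Its log2 level was 3.42, 3.85 and 3.85 on the washout arrays, 3.68, 3.85 and 3.85 on the B/B 1 h arrays and 4.18, 3.85 and 4.12 on the control arrays. The groups overlapped, with 3.85 read in each of them, and the gene was among the dimmest 30%, without a detection call to say whether it was above background. The difference of washout from control, -0.34 ± 0.13 (log2, SE), did not pass (limma adjusted p 0.0802), and it passed at 0.0401 without control replicate 2.

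Fn1 encodes fibronectin, the adhesive glycoprotein that cells assemble into the first fibrils of a new matrix. It read 12.00, 12.01 and 11.97 on the washout arrays, 12.03, 12.09 and 12.05 on the B/B 1 h arrays and 11.97, 11.97 and 11.86 on the control arrays (log2 level). B/B 1 h arrays lay above all others, and washout and control arrays overlapped. The difference of B/B 1 h from control was 0.13 ± 0.045 (log2, SE), with an adjusted p of 0.18 in limma, which passed at 0.0265 with a mean-variance trend. The difference of washout from control was 0.06, with a 95% interval from -0.04 to 0.16 and an adjusted p of 0.414 in limma.

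Dcn encodes decorin, the small proteoglycan that spaces collagen fibrils and binds TGF-beta. Its log2 level was 10.77, 10.78 and 10.78 on the washout arrays, 10.68, 10.68 and 10.74 on the B/B 1 h arrays and 10.55, 10.61 and 10.50 on the control arrays. The 3 groups did not overlap, with washout highest and control lowest. Dcn rose by 0.23 ± 0.043 (log2, SE), or 1.17-fold, in washout against control (limma adjusted p 0.0029). The differences of 0.15 at 1 h from control and of 0.08 for washout from B/B 1 h did not pass (limma adjusted p 0.105 and 0.216), and the value at 1 h passed at 0.0143 with a mean-variance trend.

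Bgn encodes biglycan, the nearest relative of decorin, which binds collagen and, when free, toll-like receptors. It was the only one of the 9 genes with more than 1 probe set, and its 2 probe sets did not give the same answer. The brighter one, which represents the gene here, read 12.70, 12.72 and 12.68 on the washout arrays, 12.69, 12.74 and 12.71 on the B/B 1 h arrays and 12.78, 12.72 and 12.72 on the control arrays (log2 level). Its groups overlapped, and washout differed from control by -0.04 ± 0.04 (log2, SE; limma adjusted p 0.578). The dimmer probe set read 9.78, 9.82 and 9.83 on the washout arrays, 10.15, 10.26 and 10.18 on the B/B 1 h arrays and 10.35, 10.23 and 10.22 on the control arrays (log2 level). All 3 washout arrays lay below the others, while B/B 1 h and control overlapped. In a limma fit of all 23521 probe sets with 1 symbol, chosen after seeing the data, the dimmer probe set fell by 0.46 ± 0.051 (log2, SE) in washout against control (adjusted p 0.000124) and by 0.39 ± 0.051 against B/B 1 h (adjusted p 0.000319). The change of the dimmer minus the brighter probe set within arrays was -0.42 for washout against control. Its exact two-sided permutation p was 0.1, the smallest that 3 against 3 arrays allow and the only value these levels could give. Whether biglycan RNA fell after washout therefore depends on the probe set read.

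**Figure D3:**
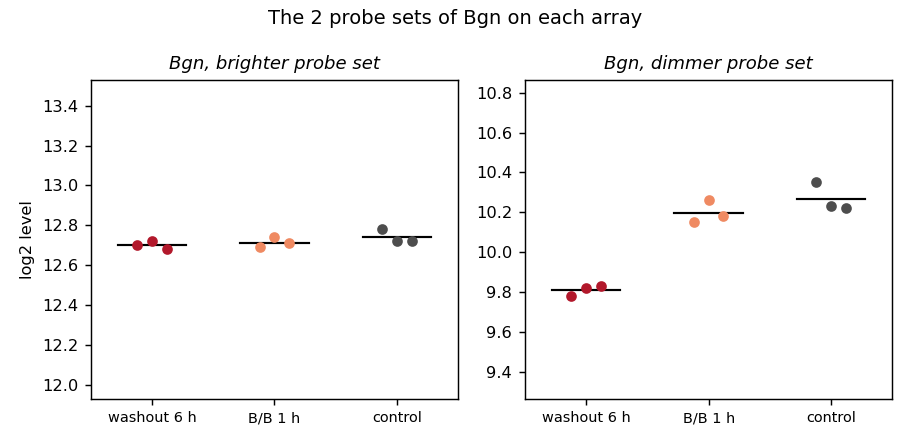
Log2 level (vertical axis) of the brighter and the dimmer probe set of Bgn on each of 3 washout, 3 B/B 1 h and 3 control arrays, with lines at group means. The brighter set stays between 12.68 and 12.78, and the dimmer set is at 9.78 to 9.83 on washout arrays and at 10.15 to 10.35 on the others.

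Lox encodes lysyl oxidase, the copper enzyme that starts collagen and elastin cross-links. Its log2 level was 11.54, 11.52 and 11.55 on the washout arrays, 12.00, 11.97 and 11.99 on the B/B 1 h arrays and 12.02, 12.09 and 12.01 on the control arrays. Washout arrays lay well below all others, and B/B 1 h arrays lay just below control. Lox fell by 0.50 ± 0.04 (log2, SE) in washout against control, to 0.707 times its level (limma adjusted p 1.49e-05), and by 0.45 against B/B 1 h (limma adjusted p 2.51e-05). At 1 h it differed from control by -0.05, with a 95% interval from -0.14 to 0.03 and an adjusted p of 0.497 in limma.

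Its relatives Loxl1, Loxl3 and Loxl4, which encode enzymes of the same chemistry, fell with it after washout. A further relative, Loxl2, was without a probe set of 1 symbol and was not analysed here. Loxl3 read 8.46, 8.32 and 8.43 on the washout arrays, 9.54, 9.56 and 9.60 on the B/B 1 h arrays and 9.51, 9.62 and 9.58 on the control arrays (log2 level), and its difference from control was -1.17 ± 0.051 (log2, SE; limma adjusted p 4.41e-07). Loxl1, which acts on elastin, averaged 9.52 ± 0.071 on washout arrays, 10.19 ± 0.024 on B/B 1 h arrays and 10.39 ± 0.0068 on control arrays (log2 level, SD, n = 3 each), a fall of 0.87 from control (limma adjusted p 1.27e-06). Loxl4 read 6.94, 7.08 and 6.98 on the washout arrays, 7.48, 7.48 and 7.45 on the B/B 1 h arrays and 7.49, 7.48 and 7.46 on the control arrays (log2 level), a fall of 0.48 (limma adjusted p 4.15e-05), and it was chosen after its value was seen. Loxl1 was the one gene of the cross-linking list that passed at 1 h, at -0.20 (limma adjusted p 0.0477), and this call was lost when any control or B/B 1 h array or washout replicate 2 was left out (limma adjusted p 0.0642 to 0.138). It was also lost with quantile normalization (0.0567), centred medians (0.0524), a robust prior (0.0513), only the 2 groups (0.0652) and array weights (0.0527).

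**Figure D4:**
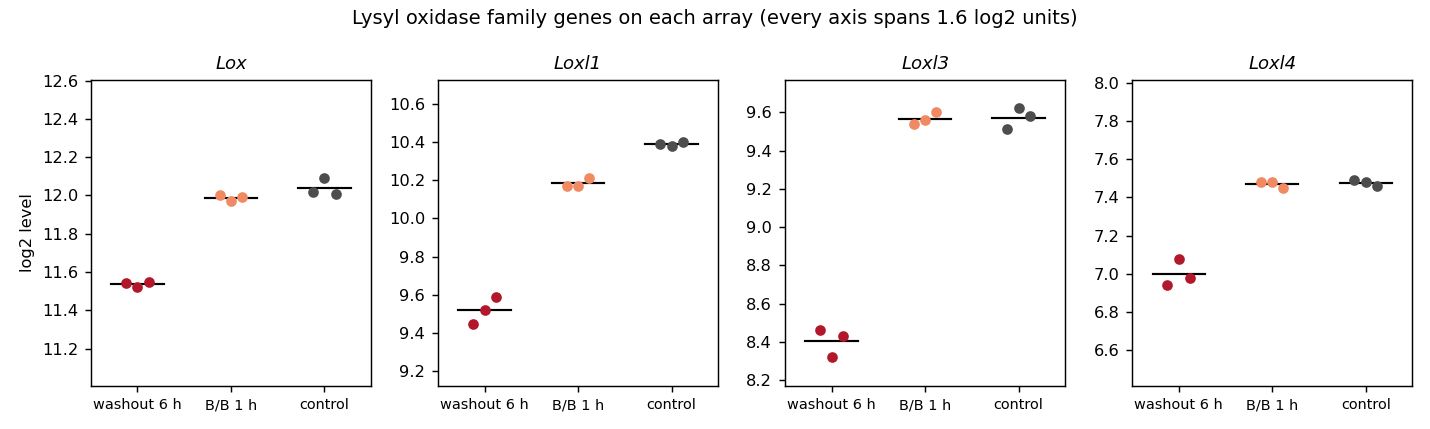
Log2 level (vertical axis) of 4 lysyl oxidase family genes on each of 3 washout, 3 B/B 1 h and 3 control arrays, with lines at group means. All 4 are lower on every washout array than on any other array, and Loxl1 is also lower at B/B 1 h than in control. Loxl2 was not analysed and is not drawn.

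The list of matrix cross-linking and processing enzymes, which holds Loxl1, Loxl3 and Loxl4 but not Lox, had 1 higher and 9 lower of 15 measured in washout against control, and 1 higher and 11 lower against B/B 1 h. Its median log2 differences were -0.34 and -0.25, beside 0 and -0.02 for all genes. Of all genes, 11.7% and 12.0% were lower past the test and 14.5% and 16.6% higher. Brighter genes passed more often, in either direction 52.4% and 53.5% of the top 10% by mean. Of the 15 genes, 0 were among the dimmest 30%, and no share was computed for genes of their levels. P4ha3, a collagen prolyl hydroxylase subunit, fell by 1.03 ± 0.06 (log2, SE) against control (limma adjusted p 2.26e-06), whereas Plod2, a lysyl hydroxylase that prepares collagen for cross-linking, was the one that rose, by 0.23 (limma adjusted p 0.00506) and was named after its value was seen.

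Decorin and biglycan carry glycan chains that a set of Golgi enzymes builds. Of 20 measured genes of chondroitin and dermatan sulfate synthesis, 6 rose and 2 fell in washout against control, 8 rose and 1 fell against B/B 1 h, and none passed at 1 h in limma (5 at an unadjusted p under 0.05). The shares of all genes that were higher past the test after washout were 14.5% and 16.6%, and 11.7% and 12.0% were lower. At 1 h 2.89% of all genes passed, and 18.5% had an unadjusted p under 0.05 in limma. Chst11, a chondroitin 4-O-sulfotransferase, read 11.10, 11.09 and 11.14 on the washout arrays, 9.91, 9.78 and 9.76 on the B/B 1 h arrays and 9.79, 9.79 and 9.65 on the control arrays (log2 level). All washout arrays lay above the others, and Chst11 rose by 1.37 ± 0.057 (log2, SE) against control (limma adjusted p 3.31e-07). B4galt7, which adds a galactose of the linker on the core protein, rose by 0.70 and Ust, a uronyl 2-O-sulfotransferase, by 0.50 against control, and Dsel, a dermatan sulfate epimerase-like gene, rose by 0.57 against B/B 1 h (limma adjusted p 1.65e-05, 0.000103 and 6.18e-05). With probe sets averaged, B4galt7 rose by 0.37 against control (limma adjusted p 0.0015).

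Among 25 measured genes of other proteoglycan core proteins, 2 rose and 5 fell in washout against control. Of all genes, 14.5% rose and 11.7% fell past the test. Ogn, a small leucine-rich proteoglycan like decorin, read 5.81, 5.74 and 6.07 on the washout arrays, 6.52, 6.75 and 6.77 on the B/B 1 h arrays and 7.34, 7.40 and 7.32 on the control arrays (log2 level). It fell by 1.48 ± 0.092 (log2, SE) after washout (limma adjusted p 3.4e-06) and by 0.67 ± 0.092 at 1 h (limma adjusted p 0.00487), while Dcn rose after washout. Hspg2, the basement membrane proteoglycan perlecan, fell by 0.66 and Vcan, the large proteoglycan versican, rose by 0.30 against control after washout (limma adjusted p 2.54e-05 and 0.00117).

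Of 25 measured genes of other matricellular proteins, 1 rose and 6 fell in washout against control. Over all genes, 14.5% rose and 11.7% fell past the test in this comparison. Ccn4, a WNT-induced secreted protein, stood at -1.02, its relative Ccn5 at -0.86 and the filament-forming matrilin gene Matn2 at -0.54 (log2, limma adjusted p 2.41e-06, 0.000329 and 3.44e-05). Of 15 measured elastic fibre and microfibril genes, 1 rose and 5 fell, led by Ltbp2, a latent TGF-beta binding protein relative, at -0.38, and the fibulin genes Fbln5 at -0.36 and Efemp1 at -0.34, and 3 fell and none rose without washout replicate 2 (limma adjusted p of the 3 named genes up to 0.000488). Of 12 measured basement membrane genes, 2 rose and 1 fell, with Nid1, a laminin linker, at 0.31, Lamb1 at 0.24 and Lamb2, both laminin chains, at -0.35.

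**Figure D5:**
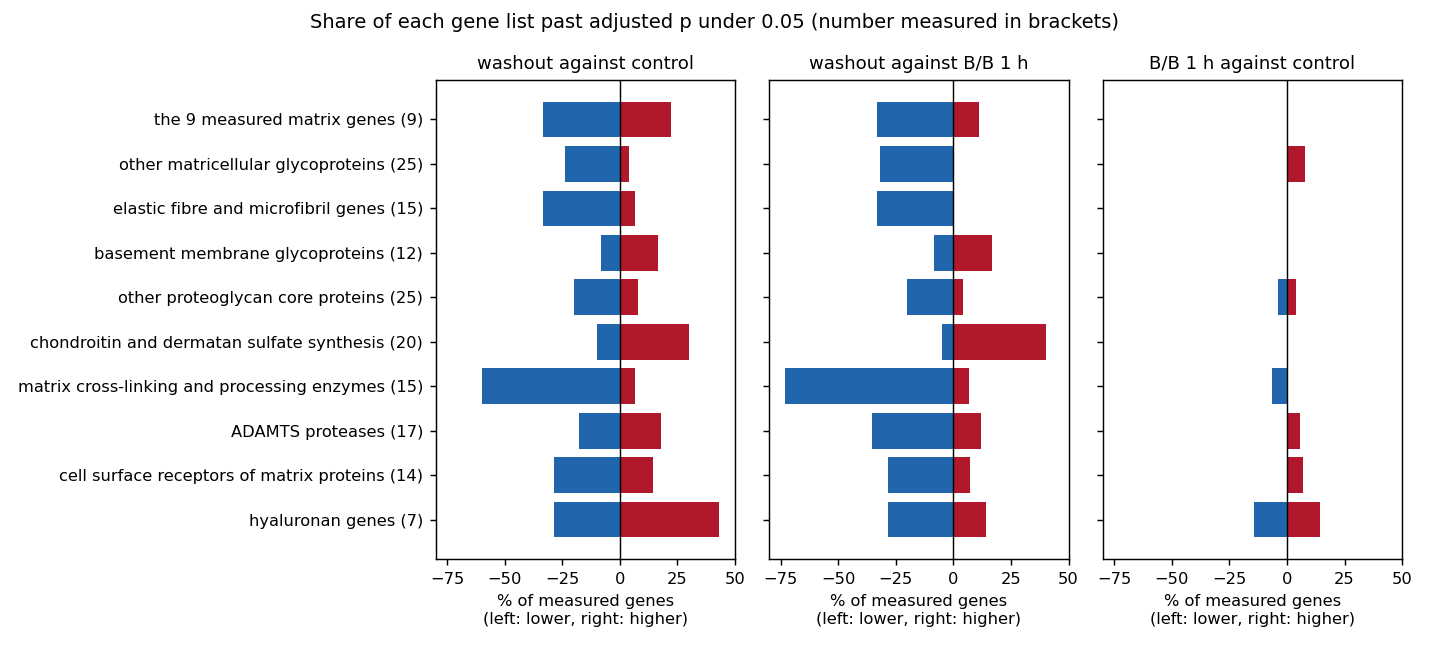
Share of the 9 genes and of 9 matrix gene lists, cell type markers not drawn (horizontal axis, % of measured genes), that was lower, drawn to the left, or higher, drawn to the right, at an adjusted p under 0.05 in 3 comparisons. Cross-linking and processing enzymes were lower for 9 of 15 genes for washout against control and 11 of 15 for washout against B/B 1 h. Of all genes, 11.7% and 12.0% were lower in these comparisons.

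Receptors that bind these proteins formed a list that also held Cav1, a caveola gene. The list had 2 higher and 4 lower of 14 measured in washout against control. Among all genes, 14.5% were higher and 11.7% lower past the test. Itgb3, the beta subunit of an integrin that binds thrombospondin 1, fibronectin and tenascin C, read 9.40, 9.40 and 9.50 on the washout arrays, 7.53, 7.78 and 7.63 on the B/B 1 h arrays and 7.65, 7.74 and 7.66 on the control arrays (log2 level), a rise of 1.75 ± 0.067 (log2, SE; limma adjusted p 2.05e-07). Itgb5, a vitronectin receptor subunit, and Cav1, the caveola protein, fell by 0.55 and 0.41 (limma adjusted p 1.65e-05 and 0.000302). Cd47, the thrombospondin 1 receptor, fell by 0.35 ± 0.06 (log2, SE; limma adjusted p 0.0016) and Cd36, among the dimmest 30% of genes, stood at -0.02 (limma adjusted p 0.857), both chosen for their role with Thbs1 after values were seen.

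Proteases of the ADAMTS family, some of which cleave proteoglycans and thrombospondins, had 3 higher and 3 lower of 17 measured in washout against control. In this comparison 14.5% of all genes were higher and 11.7% lower past the test. Adamts7 stood at 1.32, Adamts4 at 0.95 and Adamts1 at 0.61 (log2, limma adjusted p 1.62e-06, 0.000207 and 7.96e-06). Of 7 measured hyaluronan genes, 3 rose and 2 fell, with Tnfaip6, which binds hyaluronan in inflamed matrix, at 0.79, Hmmr, a hyaluronan receptor of dividing cells, at -0.65, and the hyaluronan synthase gene Has2 at -0.36.

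In washout against B/B 1 h, 12.0% of all genes fell and 16.6% rose past the test. Here 8 of the 25 other matricellular genes fell and 0 rose. Of the 15 elastic fibre genes 5 fell and 0 rose, and of the 25 other proteoglycan genes 5 fell and 1 rose. Omd, a keratan sulfate proteoglycan of the decorin family, was lower by the test, at -0.32 ± 0.076 (log2, SE; limma adjusted p 0.0106), but was among the dimmest 30% of genes, with mean log2 levels of 2.75 on washout arrays and 3.07 on B/B 1 h arrays and no detection call. Adamts14, a procollagen protease, fell by 0.74 and the endocytic receptor gene Lrp1 by 0.56, while Hyal2, a hyaluronidase, rose by 0.50 (limma adjusted p 1.91e-05, 0.00102 and 3.45e-05). With probe sets averaged, Adamts14 fell by 0.48 (limma adjusted p 3.24e-05). Of the ADAMTS genes 2 rose and 6 fell in this comparison, and of the receptor list, Cav1 included, 1 rose and 4 fell.

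At 1 h, when none of the 9 genes passed, a few genes of the surrounding lists did. Adamts1 averaged 11.08 ± 0.028 on B/B 1 h arrays and 10.09 ± 0.063 on control arrays (log2 level, SD, n = 3 each), a rise of 0.99 (limma adjusted p 3.51e-06). Tnfaip6 rose by 0.71 and Ccn1, a matricellular integrin ligand induced soon after stimulation, by 0.57 (limma adjusted p 0.000211 and 0.000114). Ccn2 at 0.21, Vcan at 0.28, Lrp1, which takes up thrombospondins, at 0.50 and Hyal2 at -0.25 also passed (limma adjusted p 0.0426, 0.0158, 0.02 and 0.0231). Each of these 4 calls was lost when certain single arrays were left out, by limma's adjusted p. Vcan reached 0.0577 without control replicate 3 and 0.056 without B/B 1 h replicate 1. Lrp1 reached 0.0523 without control replicate 3, 0.0769 without B/B 1 h replicate 1 and 0.0612 without B/B 1 h replicate 2. Hyal2 was lost without control replicate 1 or 3 (0.078 and 0.0894) or B/B 1 h replicate 2 or 3 (0.0726 and 0.0552). Ccn2 was lost without any control array (0.105 to 0.118), B/B 1 h replicate 1 or 2 (0.114 each) or washout replicate 1 or 3 (0.0696 and 0.0541). A fit of only the 2 groups compared also ended the calls of Ccn2, Vcan and Hyal2 (0.0722, 0.0538 and 0.0534), and quantile normalization those of Ccn2 and Hyal2 (0.0563 and 0.0542). Ccn2 was lost as well with centred medians (0.0526) and averaged probe sets (0.0913).

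Markers of the labelled cell type and of others were read on the same arrays. Of all genes, 14.5% were higher and 11.7% lower past the test in washout against control. At 1 h these shares were 1.01% and 1.88%. At an unadjusted limma p under 0.05 at 1 h, 18.5% of all genes passed and 21.6% of the top 10% by mean. So did 6 of 12 leukocyte, 5 of 11 endothelial and 1 of 9 epithelial markers. In bulk RNA, fewer cells of a type and less RNA per cell cannot be told apart. Of 8 fibroblast markers, all outside the lowest 30% of genes, 1 was higher and 6 lower in washout against control, and 0 passed at 1 h in limma (4 at an unadjusted p under 0.05). Their mean log2 level was at most 9.52 on washout arrays, at least 9.99 on B/B 1 h arrays and at least 9.97 on control arrays. The log2 of their summed level, to which brighter genes add more, ran from 13.62 to 13.63 on washout arrays, 13.81 to 13.83 on B/B 1 h arrays and 13.83 to 13.84 on control arrays. Col1a2, a collagen I chain, and Col1a1, its partner, fell by 0.99 and 0.79, Pdgfrb, a growth factor receptor, by 1.36, and Pdgfra, named after its value was seen, rose by 0.68 (log2; limma adjusted p 5.24e-07, 6.38e-06, 1.06e-07 and 8.52e-06). Vim, an intermediate filament gene also named after its value was seen, stood at -0.01 (limma adjusted p 0.939). The 6 lower markers moved in the direction of Thbs1, Sparc and Lox, Pdgfra moved in the other, and the part of either in those results was not tested. Of 12 leukocyte markers, 1 was higher and 2 lower in washout against control, with Cd14, the lipopolysaccharide co-receptor, at 1.47, Lyz2, a lysozyme, at -0.30 and Ptprc, the pan-leukocyte CD45, at -0.19, and with Ptprc, Adgre1, Lyz2, Itgam and Cd3e in the lowest 30% of genes. At 1 h, 4 of the 12 passed, all higher, with Cd79a, a B cell receptor chain, at 0.70, Cd14 at 0.61 and Cd68, a lysosomal protein of macrophages, at 0.51. The remaining one, the dim Adgre1, was at 0.30 (limma adjusted p 0.0446) and was named after its value was seen. The log2 summed level of leukocyte markers was 10.04 to 10.09 on washout arrays, 9.79 to 9.89 on B/B 1 h arrays and 9.37 to 9.45 on control arrays. Their mean log2 level was at most 5.02 on washout arrays, 5.10 on B/B 1 h arrays and 4.94 on control arrays, and at least 4.88 on any array, and Cd14 was the one marker of the 12 that was higher past the test after washout against control. Endothelial markers had 1 higher of 11 and epithelial markers 1 lower of 9, Cdh5 at 0.28 and Cdh1 at -0.20, and the Cdh1 call was lost without control replicate 1 or 3 or washout replicate 2 or 3 (limma adjusted p 0.0746, 0.0984, 0.0577 and 0.0986), in a fit of only the 2 groups (0.059) and with probe sets averaged, where its value was -0.07 (0.339). Their log2 summed levels were 8.21 to 8.35 and 8.27 to 8.34 on washout arrays, 8.14 to 8.26 and 8.36 to 8.41 on B/B 1 h arrays, and 8.12 to 8.20 and 8.29 to 8.32 on control arrays.

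The 9 arrays had medians of 4.60 to 4.68 (log2), and none duplicated another. Pearson's r over all genes, which are no replicates, was 0.998 or 0.999 for pairs within a group and at least 0.990 for pairs from 2 groups. B/B 1 h replicate 1 had the lowest array weight, 0.563, and leaving it out gave 5 of 9 genes past the test for washout against control and 4 for washout against B/B 1 h, with 0 at 1 h. Precision is limited by there being 3 arrays in a group.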

How the data were processed

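Total RNA was extracted with Trizol and labelled as biotinylated cRNA for 9 one-colour Affymetrix arrays, per the labels' protocols. The submitters' processing notes name Partek 6.6; how probes were summarized and normalized is not given in the sources used here. Quantiles were near-equal on all arrays as deposited, with values on a log2 scale whose base was inferred from a maximum of 13.22. No detection calls were used. The platform annotation gave 1 symbol to 23521 of 41345 probe sets, none to 16010 and more than 1 to 1814; a gene table of assembly GRCm38.p6 held 23328 of the former and changed 0 symbols.

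The probe set with the highest mean stood for its gene. One linear model of 3 group means was fitted in R 4.3.3 with limma 3.58.1 (6 residual and 3.38 prior degrees of freedom), with Benjamini-Hochberg adjustment over 22180 genes in each comparison. Intervals are at 95%. The members and lists were chosen with earlier results of these data known. Named from each list were up to 3 genes with the largest change among those past the threshold; others are marked where named, and dim markers are named as such. Replicate numbers 1 to 3 follow deposit order within a group and only name arrays. List genes without a 1-symbol probe set were not analysed here. The code was tested on simulated data. Alternatives were quantile normalization, centred medians, a filter on dim genes, averaged probe sets, a variance trend, a robust prior, only the groups compared, array weights, adjusted p under 0.01, each array left out and, added after seeing the data, every probe set on its own.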

Additional observations from a re-analysis of the deposited data

How the results depend on the processing

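The 5 genes that passed in washout against control and the 4 in washout against B/B 1 h did so under all 18 alternatives run on every gene, and Thbs1 ran from -1.03 to -0.98 and from -1.08 to -1.01 (log2). Leaving out each array gave 5 to 6, 4 to 4 and 0 to 0 genes past the threshold in washout against control, washout against B/B 1 h and B/B 1 h against control. At 1 h the count was 1 with the lowest 30% of genes left out and 3 with a variance trend, which also took all genes called from 642 to 952 and 1228. With probe sets averaged, Bgn passed as well (-0.25 against control, adjusted p 0.00207). Of 486 recomputed values of the 9 genes, 3 of them for the second Bgn probe set, 475 kept direction and side of the threshold, 9 newly passed and 2 changed sign: Bgn in washout against B/B 1 h, at 0.03 with medians centred, and Postn in the same comparison, at 0.06 without washout replicate 1 (-0.16 to 0.06 as single arrays were left out); neither passed in limma. Loxl4, Plod2, Cd47, Cd36, Pdgfra, Vim and Adgre1 were named outside the rule for lists, and their values were not recomputed. Of 1455 values of the other genes that the rule named, 66 no longer passed and none changed sign. Among them, without single arrays, were Lamb1 in washout against B/B 1 h (adjusted p 0.0746 to 0.101 where lost) and Ptprc and Lyz2 in washout against control (0.0529 to 0.0888 and 0.0598 to 0.0902). The causes were not tested. Counts over all genes at 1 h ran from 323 to 691 when 1 array was left out. No paired analysis was possible because the labels give no replicate numbers, and those used here only name arrays in deposit order. Signal over background was not available, which limits what can be said of Postn, and Postn had no value with the lowest 30% of genes left out.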
